A study of Homo sapiens with 8 samples.

Results

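The MGAT enzymes and their partners build the branches of N-glycans, the sugar trees that secreted and cell surface proteins receive on asparagine. The group comprised 10 genes: MGAT1, MGAT2, MGAT3, MGAT4A, MGAT4B, MGAT5, the fucosyltransferase FUT8 and the mannosidases MAN2A1, MAN2A2 and MAN1A2. All 28 probe sets that were annotated to a single gene of this group were taken, out of 54613 probe sets other than array controls, and all 10 genes had at least 1. The group was chosen on the log2 difference between miR-143 and mock in these same arrays, which was largest for a probe set of MGAT4A, so the values of that comparison are given as a description, and the counts of calls beside them support nothing about the group. DLD-1, a line of human colorectal adenocarcinoma cells, was transfected with 50 nM miR-143 duplex by a lipid reagent or mock transfected, and total RNA was taken after 24 h. Each group had 4 arrays, which the study calls biological replicates. The labels call the control mock and name no array of a scrambled duplex, so an effect of miR-143 cannot be told apart from that of any duplex. DLD-1 is a single cell line.

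Branching runs in a fixed order in the Golgi apparatus. Mannosidases of class I such as MAN1A2 trim the mannose tree that arrives from the endoplasmic reticulum, MGAT1 then adds the first N-acetylglucosamine (GlcNAc), and MAN2A1 and MAN2A2 remove further mannose so that MGAT2 can start the antenna on the other arm. MGAT4A, MGAT4B and MGAT5 add extra antennae, MGAT3 adds a bisecting GlcNAc that hinders further branching, and FUT8 attaches fucose to the core. Glycans with MGAT5 antennae are long known from colorectal and other tumours, where they are read by galectins at the cell surface.

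The sequence that sets this experiment apart is that of the transfected microRNA, and both mature strands from RefSeq are shown, with the seed (bases 2 to 8) in capitals. The guide strand lies on the plus strand at chr5:149428978-149428998 and the other strand at chr5:149428944-149428965 in build GRCh38.p14.
hsa-miR-143-3p: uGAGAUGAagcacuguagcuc
hsa-miR-143-5p: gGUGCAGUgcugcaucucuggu
The match of the first seed in a target, written as DNA, is TCATCTC. The seeds of both strands differ, and transcripts of the branching enzymes were not searched for either match.

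The values are log2 expression values made by the authors with RMA, a method meant to correct the background, equalise the arrays and summarise the probes of a set. Array medians ran from 7.15 to 7.23, but the replicate 4 arrays had a wider spread of values. Their upper quartiles were both 8.20, against 8.005 to 8.10 on the remaining 6. Their highest values were 15.28 with miR-143 and 15.43 in mock, against at most 14.87 on the remaining 6. A probe set was called dim where its mean over the 8 arrays lay below 7.20, the median over all probe sets. This limit and the choice of a brightest probe set compare levels between probe sets, whose probes differ in brightness, so both are rough guides. In both groups the replicate 4 array lay away from the remaining 6, at 36.1 and 39.4 on the first principal component (62.3% of the variance) against -26.7 to -5.36. Markers gave a weak check of the labelled cells. Of 9 genes of colorectal epithelium 8 were not dim (LGALS4 was), as were 12595 of the 19752 brightest probe sets of all genes. For other tissues 4 of 6 fibroblast, 3 of 4 leukocyte and 3 of 5 endothelial genes were dim. The fibroblast gene COL1A1 was among those not dim, with a mean of 8.14. HK2, the hexokinase that the study followed, had a mean of 10.80 ± 0.23 in mock and of 10.44 ± 0.30 after miR-143 (SD, n = 4 each). Its log2 difference was -0.36 (standard error 0.155), and whether limma called it depended on the use of the replicate number as a block.

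Transcripts of the branching enzymes showed small differences between miR-143-transfected and mock-transfected cells, apart from MGAT4A. For the brightest probe set of each gene 5 of 10 differences were negative and 5 positive, with a median of 0.00 on the log2 scale, and the median over the brightest probe sets of all 19752 genes was -0.01. The brightest MGAT4A probe set had a log2 difference of 0.27, and the other 27 probe sets of the group lay between -0.12 and 0.11. In all 28 the arrays of both groups overlapped, while 2.05% of all probe sets had groups that did not overlap (0.767% with miR-143 above mock and 1.29% with it below). Limma, fitted without the replicate number as a block, called 0 of the 28 probe sets at an adjusted p of 0.05, where it called 0.00183% of all probe sets, a single one, of the RNA OIP5-AS1 (named here after its value was seen). At an unadjusted p under 0.05 the count was 1 of 28, the brightest MGAT4A probe set, against 2.47% of all probe sets. Since the group was chosen with this comparison known, nothing is read from these counts. Standard errors of the brightest probe sets ran from 0.065 to 0.187 in this fit, so small differences were not detectable by it. With the replicate number as a block the standard errors ran from 0.0473 for MGAT4A to 0.0785 for MGAT1.

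**Figure D1:**
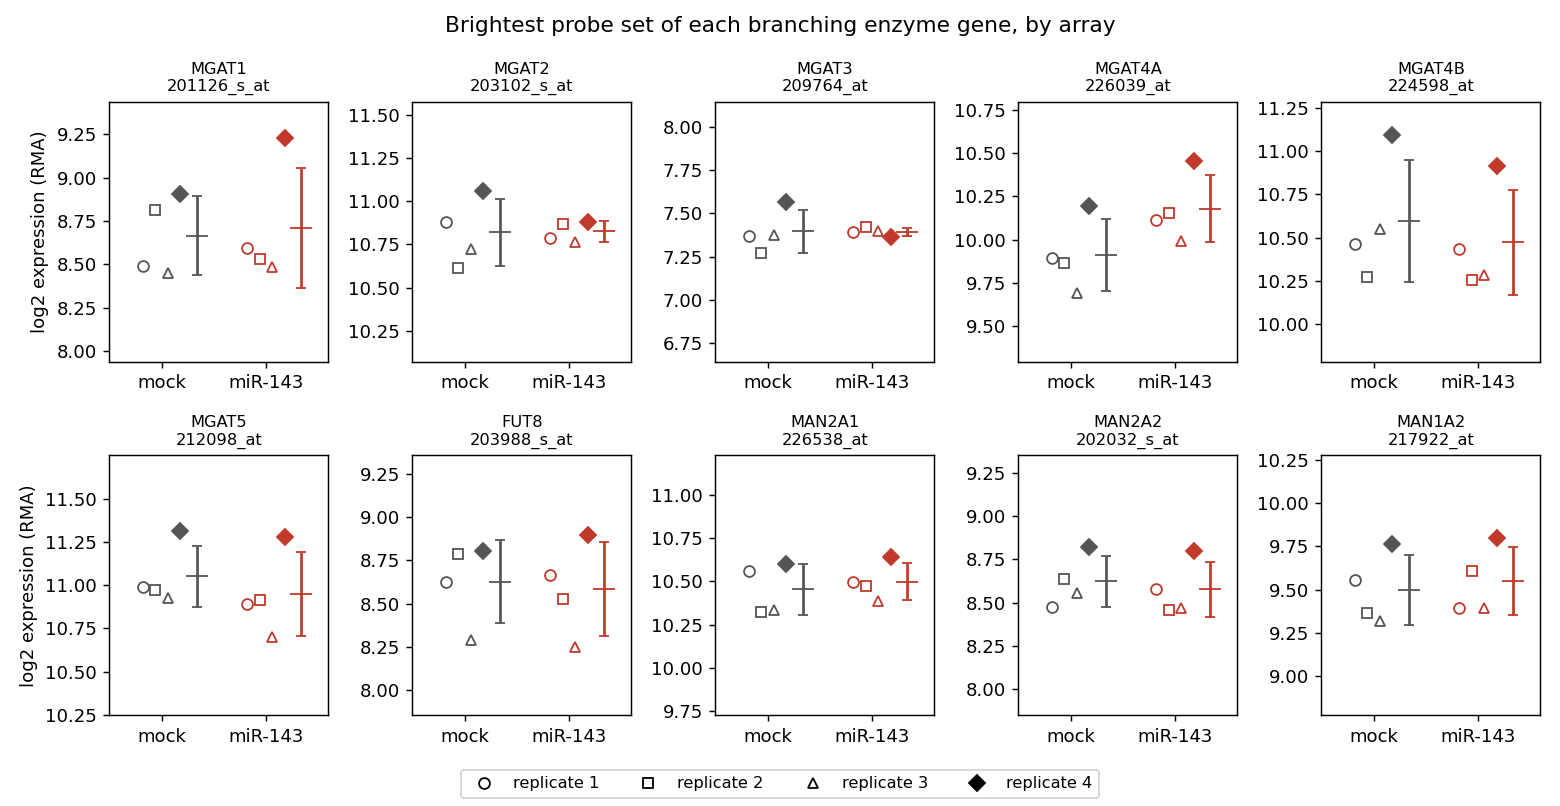
Log2 expression on each array for the brightest probe set of the 10 genes, mock in grey and miR-143 in red, with marker shapes for the replicate numbers (filled diamonds are replicate 4) and mean ± SD beside the points. Every panel spans the same range of log2 units, both groups overlap in each gene, and in 8 of 10 panels the replicate 4 arrays lie above the other 6.

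MGAT4A, which adds an extra antenna to the arm that MGAT1 began, was measured by 4 probe sets that did not move alike. The brightest, 226039_at, read 10.12, 10.16, 9.99 and 10.45 on miR-143 arrays 1 to 4 and 9.89, 9.86, 9.69 and 10.19 on mock arrays 1 to 4. Its miR-143 arrays 1 to 3 lay above mock arrays 1 to 3, and mock replicate 4 lay above all of these. The mean was 9.91 ± 0.21 in mock and 10.18 ± 0.20 after miR-143 (SD, n = 4 each), a log2 difference of 0.27 (standard error 0.119), or 1.20-fold. Of all probe sets 0.0989% had a difference at least as far up. The group was chosen on this difference, so the small share was set by that choice and supports nothing. The difference moved from 0.18 without miR-143 replicate 4 alone to 0.36 without mock replicate 4 alone. Without both, and with the replicate number as a block, it was 0.27.

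A second MGAT4A probe set, 231283_at, also lay higher on average. It read 7.94, 8.01, 7.94 and 8.18 with miR-143 against 7.86, 7.96, 7.86 and 7.96 in mock. Its log2 difference was 0.11 (standard error 0.065), and miR-143 arrays 1 and 3 lay within the range of the mock arrays. The other two MGAT4A probe sets showed differences near 0. Probe set 219797_at read 7.99, 8.08, 7.87 and 8.09 with miR-143 against 8.15, 7.86, 8.01 and 8.13 in mock, a log2 difference of -0.03 (standard error 0.078). The dim probe set 1569136_at ran from 6.90 to 7.09 with miR-143 and from 6.97 to 7.03 in mock, with a log2 difference of -0.01 (standard error 0.053). Thus 219797_at, which was not dim, did not share the difference of the brightest probe set, and with the mean over all 4 the log2 difference of MGAT4A was 0.08. Whether the probe sets read different transcript forms was not tested.

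**Figure D2:**
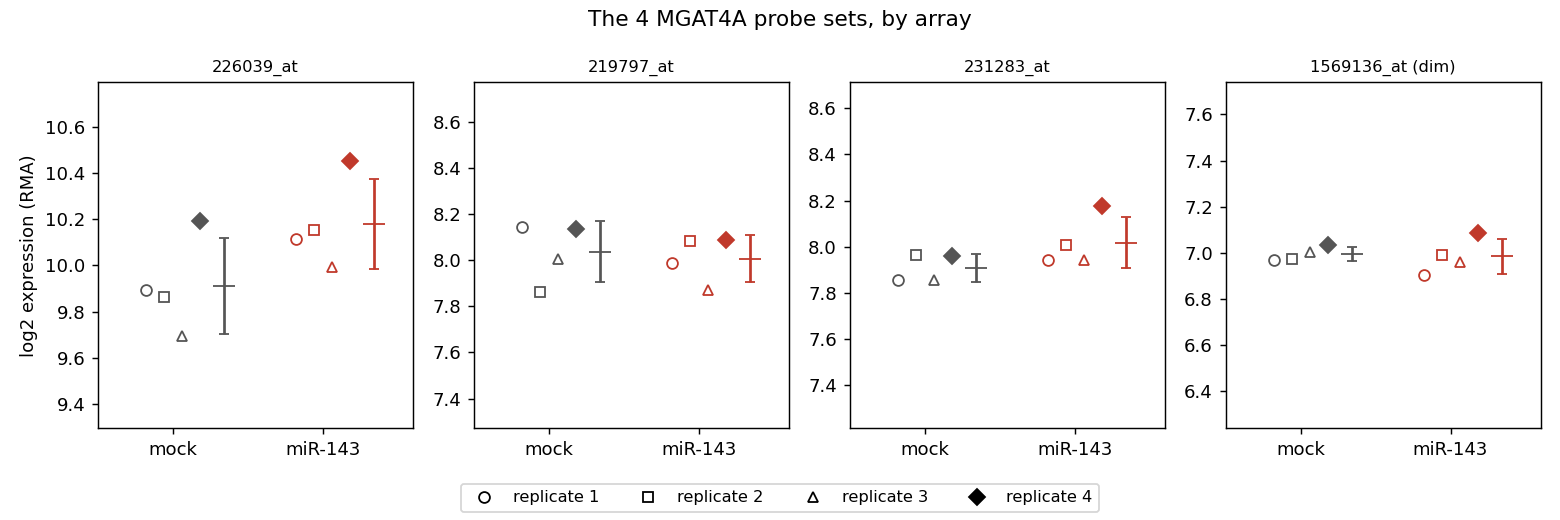
Log2 expression of MGAT4A on each array by its 4 probe sets, from the brightest to the dimmest, in panels that span the same range, with mean ± SD (n = 4) beside the points. The miR-143 mean lies 0.27 above mock for 226039_at and 0.11 above for 231283_at, and -0.03 and -0.01 from it for the others.

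The gene profiles nearest to that of the brightest MGAT4A probe set over the 8 arrays were those of MPZL3, SMIM13 and SEC16A. Likeness was the root mean square difference of log2 values after each profile was centred on its own mean, over 12594 other genes whose brightest probe set was not dim. The distance was 0.039 for MPZL3, an immunoglobulin-like membrane protein, 0.044 for SMIM13, a small membrane protein, and 0.046 for SEC16A, which organises the sites where cargo leaves the endoplasmic reticulum. In MPZL3 and SEC16A, as in MGAT4A, both replicate 4 arrays lay above the other 6, and in SMIM13 they did not. The other MGAT4A probe sets lay farther off, at 0.146 to 0.203, and the probe sets of the other 9 genes at 0.126 to 0.315.

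MGAT4B, which makes the same linkage as MGAT4A, had a difference of the other sign. Its brightest probe set read 10.43, 10.25, 10.29 and 10.91 with miR-143 and 10.46, 10.27, 10.55 and 11.09 in mock. The log2 difference was -0.12 (standard error 0.187), less than the spread between arrays. It was 0.04 without mock replicate 4 alone, and -0.10 without both replicate 4 arrays, with the replicate number as a block. The other MGAT4B probe set had a log2 difference of -0.09 (standard error 0.141) and ran from 7.24 to 7.88 with miR-143. Values of MGAT4A and MGAT4B are set side by side, and the difference between these genes was not tested.

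MGAT5, which starts the antenna that carries long lactosamine chains, lay slightly lower on average with miR-143. The values were 10.89, 10.92, 10.70 and 11.28 with miR-143 and 10.99, 10.97, 10.93 and 11.31 in mock. Both replicate 4 arrays lay above the rest, and miR-143 arrays 1 to 3 lay below mock arrays 1 to 3. The log2 difference was -0.10 (standard error 0.125). It was -0.02 without mock replicate 4 alone, and -0.13 without both replicate 4 arrays, with the replicate number as a block. A dim probe set of MGAT5 had a log2 difference of -0.04 (standard error 0.051).

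MGAT1, the entry point of hybrid and complex glycans, had 1 probe set. It read 8.59, 8.53, 8.49 and 9.23 with miR-143 and 8.49, 8.81, 8.45 and 8.90 in mock. The log2 difference of 0.05 (standard error 0.168) was far below the SD of 0.35 among the miR-143 arrays, where replicate 4 stood alone. MGAT2, which follows it on the other arm, read 10.79, 10.87, 10.76 and 10.88 with miR-143 and 10.88, 10.62, 10.73 and 11.06 in mock by its brightest probe set. Its log2 difference was 0.00 (standard error 0.090), with values of -0.03 and -0.01 for the other MGAT2 probe sets.

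MGAT3, the bisecting enzyme, was weakly measured. Its brightest probe set read 7.39, 7.42, 7.40 and 7.36 with miR-143 and 7.37, 7.27, 7.38 and 7.57 in mock, close to the limit for dim probe sets, and its log2 difference was 0.00 (standard error 0.065). A second probe set lay at 7.23 on average with a log2 difference of 0.06 (standard error 0.073), and the third was dim at 6.96. Some markers of other tissues, such as the endothelial gene TEK, were not dim either, so a value just past that limit does not show that a transcript is present.

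FUT8, the enzyme of core fucose, varied among arrays by more than between groups. Its brightest probe set read 8.66, 8.52, 8.25 and 8.90 with miR-143 and 8.63, 8.79, 8.29 and 8.80 in mock, so that replicate 3 was lowest in both groups. The log2 difference was -0.04 (standard error 0.147), and the second FUT8 probe set had 0.04 (standard error 0.095).

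The mannosidases that prepare the substrate showed no difference beyond their spread either. MAN1A2 read 9.39, 9.61, 9.40 and 9.80 with miR-143 and 9.56, 9.37, 9.32 and 9.76 in mock by the brightest of its 6 probe sets, a log2 difference of 0.05 (standard error 0.118). Its other 5 probe sets, of which 3 were dim, lay between -0.04 and 0.02. MAN2A1 read 10.50, 10.47, 10.39 and 10.64 with miR-143 and 10.56, 10.32, 10.33 and 10.60 in mock, a log2 difference of 0.04 (standard error 0.082), and its other probe sets had -0.02 and -0.03. MAN2A2 read 8.58, 8.46, 8.47 and 8.80 with miR-143 and 8.48, 8.64, 8.55 and 8.82 in mock, with log2 differences of -0.05 (standard error 0.095) and, for its other probe set, -0.03. Of the 9 genes with more than 1 probe set, only MGAT4B, MGAT5 and MAN2A2 had differences of the same sign in all of them.

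**Figure D3:**
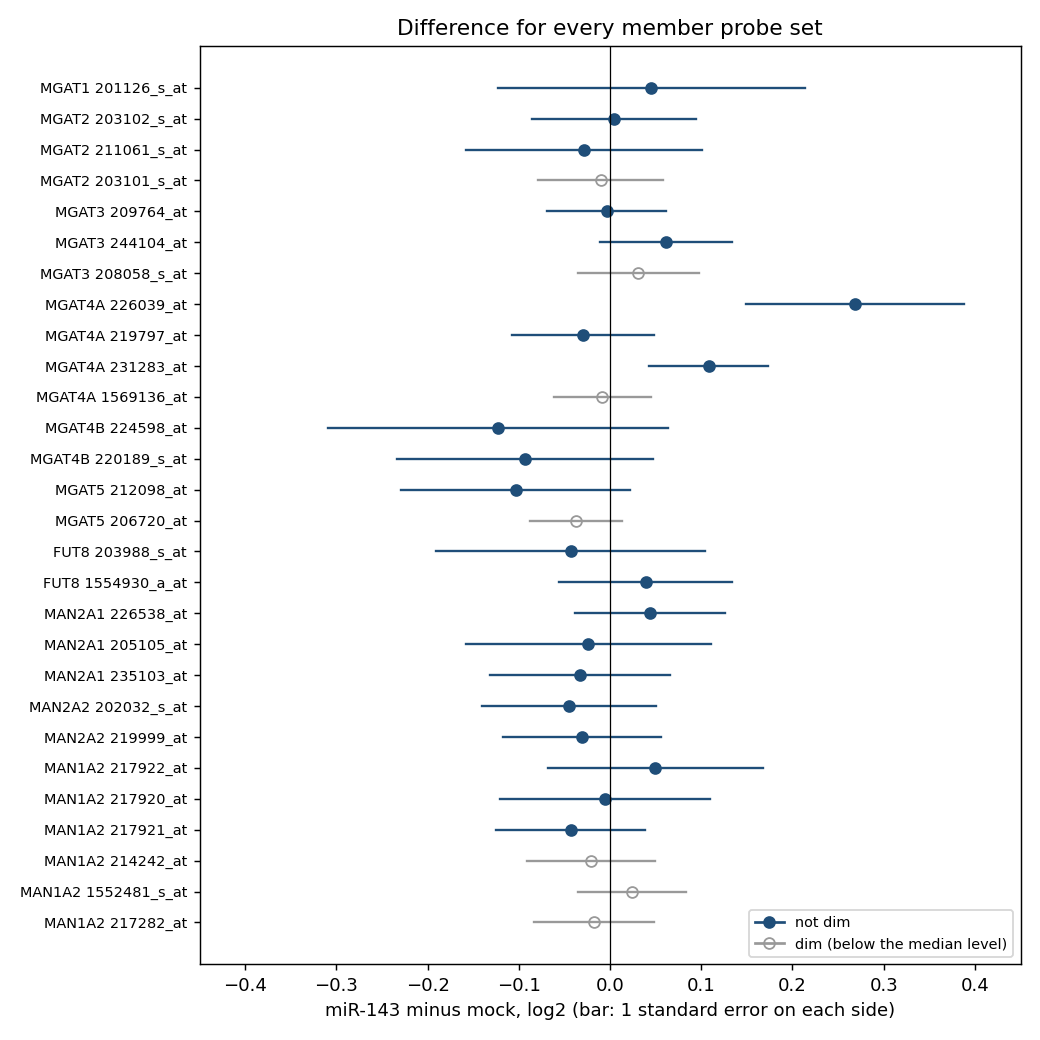
Log2 difference (miR-143 minus mock, 4 arrays each) of all 28 probe sets, with bars of 1 standard error from limma on each side and open grey symbols for dim probe sets. The brightest MGAT4A probe set lies at 0.27, and the remaining 27 lie between -0.12 and 0.11.

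For the branching enzymes the replicate 4 arrays lay farther from the other arrays than miR-143 lay from mock. Both replicate 4 arrays exceeded the other 6 arrays in 8 of the 10 brightest probe sets, against 30.0% of the brightest probe sets of all genes and 43.7% of those that were not dim. Over all 28 probe sets the count was 14, against 24.8% of all probe sets. These shares were not matched for level, and the replicate 4 arrays had a wider spread of values. Nothing particular to the group is therefore read from these counts. Among the 10 brightest probe sets MGAT2 and MGAT3 were the exceptions. The mean of the replicate 4 arrays exceeded that of the other 6 by 0.09 for MGAT3 up to 0.63 for MGAT4B on the log2 scale. In all 10 this gap was larger than the size of the difference between miR-143 and mock. The share of all genes with such a gap was not counted, so nothing particular to the group is read from this. For MGAT1 the means were 9.07 and 8.56, and for MGAT4A 10.32 and 9.95. The group median of the difference between miR-143 and mock moved when only 1 replicate 4 array was left out. Without mock replicate 4 it was 0.07, with 9 of 10 genes positive. Over all genes the median was then -0.003, with 10229 of 19752 negative. Without miR-143 replicate 4 the group median was -0.08, with 8 of 10 negative. MGAT4A stayed positive in both cases. With both replicate 4 arrays left out, and the replicate number as a block, the group median was -0.001, with 5 negative and 5 positive. The labels do not say what a replicate number stands for, and the part of replicate 4 in single values was not tested further.

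**Figure D4:**
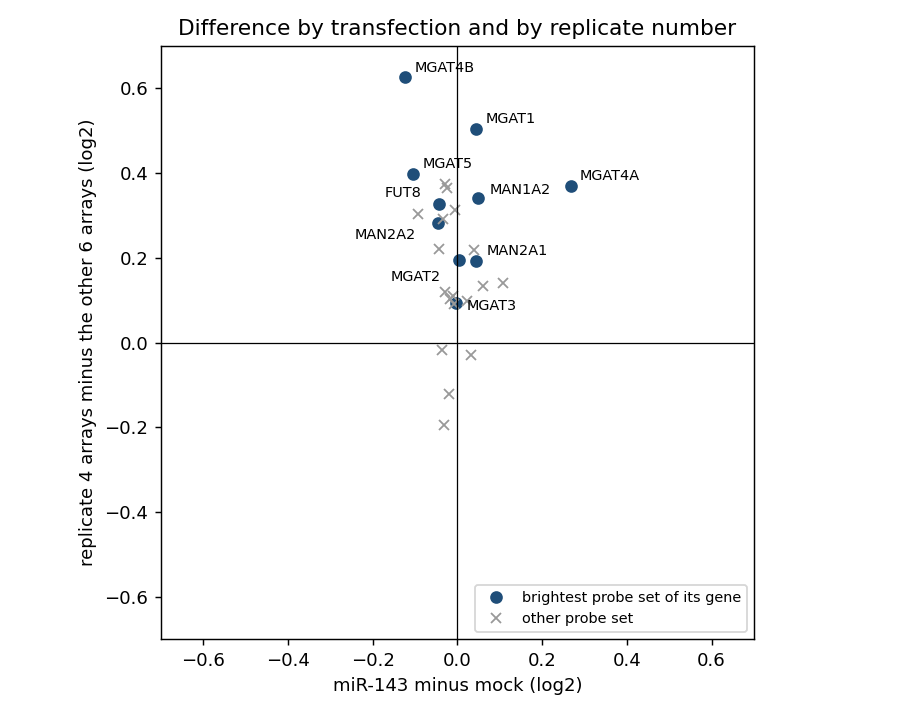
For each of the 28 probe sets, the log2 difference between miR-143 and mock (horizontal) against the log2 difference between the replicate 4 arrays of both groups and the other 6 arrays (vertical), on equal scales. The brightest probe sets (named, blue) lie from 0.09 to 0.63 on the vertical axis and from -0.12 to 0.27 on the horizontal axis.

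Genes before and after the branching step likewise gave no calls. Of 53 genes measured in 6 lists, limma called 0 (0.00183% of all probe sets), with 27 negative and 26 positive differences and a median of 0.00 against -0.01 for all genes. At an unadjusted p under 0.05 there was 1, GFPT1, against 2.80% of the brightest probe sets of all genes. GFPT1, the first enzyme of the route to UDP-GlcNAc, the donor for every MGAT enzyme, had a mean of 10.94 ± 0.13 in mock and 10.74 ± 0.14 after miR-143 (SD, n = 4 each), a log2 difference of -0.20 (standard error 0.085). The arrays read 10.75, 10.75, 10.56 and 10.90 against 10.96, 10.88, 10.80 and 11.10, and the groups overlapped.

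Among the 15 measured genes of sugar nucleotide supply and Golgi import 9 were negative, with a median of 0.00. The Golgi transporter of UDP-GlcNAc, SLC35A3, had a log2 difference of -0.13 (standard error 0.077). GNE, which starts sialic acid synthesis, had -0.13 (standard error 0.089), and the GDP-fucose transporter SLC35C1 had 0.09 (standard error 0.083). Of 10 genes that act on the glycan in the endoplasmic reticulum or early Golgi, most of them by trimming, 6 were negative, with a median of -0.01. MOGS, the glucosidase that makes the first cut, had a log2 difference of -0.25 (standard error 0.141), the endomannosidase MANEA had -0.11, the glucosyltransferase UGGT1, a sensor of folding, had 0.05, and the glucosidase subunit GANAB had 0.09.

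The other Golgi mannosidases and GlcNAc transferases mostly gave dim values, in 4 of 5 genes. These were MAN1C1, MGAT4C, MGAT4D and MGAT5B. MAN1A1, a close relative of MAN1A2, was well measured at 10.66 ± 0.15 in mock and 10.69 ± 0.07 after miR-143 (SD, n = 4 each), and its log2 difference was 0.03. MGAT4C had -0.03, MAN1C1 -0.04 and MGAT5B 0.04.

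Of 9 genes that extend antennae with galactose and lactosamine 3 were negative, with a median of 0.01. The galactosyltransferases B4GALT1, B4GALT2, B4GALT3 and B4GALT4 had log2 differences of -0.19, 0.12, -0.06 and 0.07. B4GALT1 varied widely, with SDs of 0.40 and 0.41. Its difference was 0.00 without mock replicate 4, where miR-143 replicate 4, also above the rest, was kept. Of 10 genes that cap antennae with sialic acid or fucose 5 were negative, with a median of 0.00, and ST3GAL6, ST6GAL2, ST3GAL4 and FUT3 had -0.08, 0.09, -0.07 and -0.05.

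Among the galectins, which bind branched glycans, LGALS1 was the only gene of the 53 whose groups did not overlap (0.767% of all probe sets had every miR-143 array above every mock array). It read 7.31, 7.31, 7.28 and 7.36 with miR-143 and 7.18, 7.06, 7.28 and 7.25 in mock, a log2 difference of 0.12 (standard error 0.058). These values lie around the limit for dim probe sets, and miR-143 replicate 3 exceeded mock replicate 3 by 0.0069. LGALS3, LGALS8 and LGALS9 had log2 differences of -0.07, -0.08 and 0.04.

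**Figure D5:**
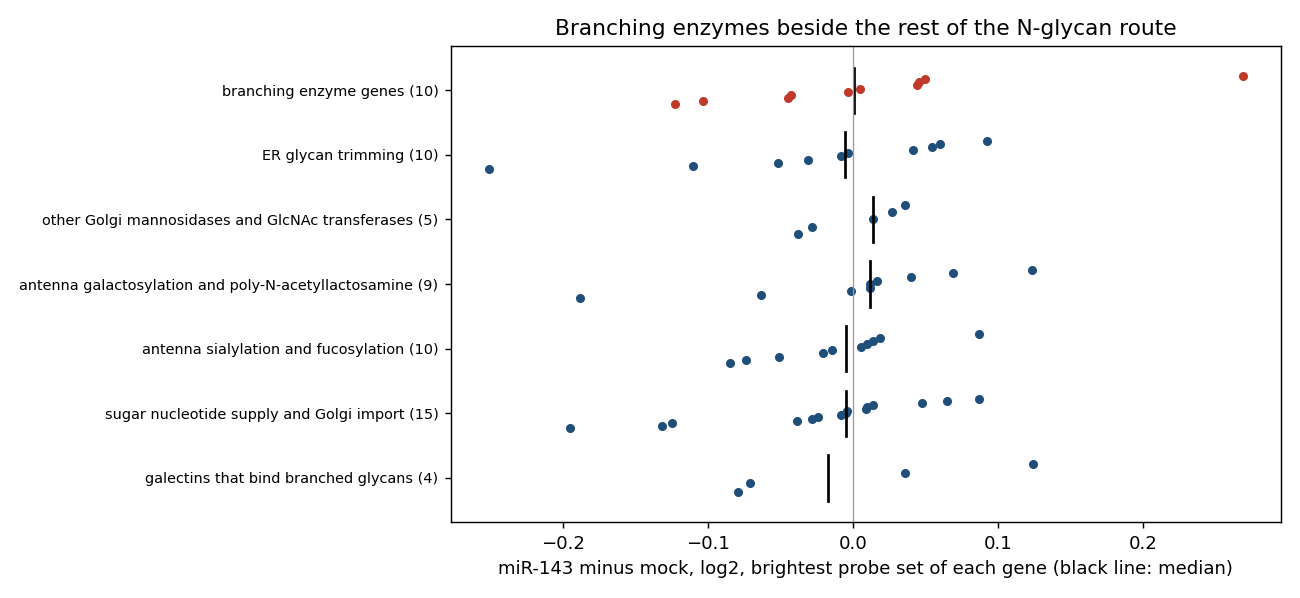
Log2 difference (miR-143 minus mock) of the brightest probe set of each gene, for the 10 branching enzyme genes (red) and the 6 other lists of the N-glycan route (blue), with the number of genes in parentheses and black lines at the medians. The list medians lie between -0.02 and 0.01. The MGAT4A point at 0.27, on which the group was chosen, is the farthest to the right.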

How the data were processed

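Total RNA of 8 cultures was measured on Affymetrix HG-U133 Plus 2.0 arrays. The deposited values are log2 values that the authors made, per the labels, with RMA in the affy package (versions not given in the sources used here). They were used as deposited. An array gives no depth, so the number of arrays and the level over background limit the precision. Of 54675 probe sets 62 controls were left out, 41091 carried a single gene, brought to its current symbol through Entrez identifiers, 1801 several and 11721 none.

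A linear model (lmFit, then eBayes) was fitted with limma 3.58.1 under R 4.3.3 to all 54613 probe sets, without a block, and its two-sided p-values were adjusted after Benjamini-Hochberg over all of them at a threshold of 0.05. Python 3.11.15 with numpy 2.4.6, pandas 2.3.3 and scipy 1.17.1 served for summaries and plots. The brightest probe set of a gene has the highest mean over the 8 arrays. Named genes were the 10 members, in each other list up to 4 genes of lowest p, the 3 nearest profiles to MGAT4A, and HK2. The members and lists were chosen with earlier results of these data known. Limma was tested on simulated data. In a first form, with spreads taken from the paired fit, the share of false calls exceeded the threshold. In a second form, with spreads drawn from the model that limma assumes, it stayed near the threshold on average. Most large changes were found there and smaller ones were often missed. Simulated arrays varied independently in both forms, without the shift that the replicate 4 arrays of both groups share. The simulations therefore do not show how limma behaves with that shift.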

Additional observations from a re-analysis of the deposited data

Results flagged for a closer look

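Dixon's test for 1 array far from the other 3 was applied to the 56 groups of the 28 probe sets. Chance alone gives such a result in about 1 of 20 groups. In 3 groups a value stood out, each time on a replicate 4 array, and this count is about what chance gives. MGAT1 read 9.23 on miR-143 replicate 4, against 8.49 to 8.59 on the other miR-143 arrays. MGAT5 by its brightest probe set read 11.31 on mock replicate 4, against 10.93 to 10.99 on the other mock arrays. The probe set 219999_at of MAN2A2 read 6.99 on mock replicate 4, against 7.30 to 7.35, and was thus low where the others were high.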

How the results depend on the processing

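The number of probe sets called among all was 1 without a block, and it depended on the processing. It was 226 with the replicate block (178 lower and 48 higher, or 0.326% and 0.0879% of all) and 173, 149, 41 and 71 with the block and number 1, 2, 3 or 4 left out, 56 with array weights and 54 after cyclic loess. It was 0 after median centring, with an intensity trend, with an interquartile range above 0.25, with the brightest probe set or the mean per gene, and 0 to 1 with single arrays left out (0 without miR-143 replicate 1, 2 or 3 or mock replicate 1 or 3). Among the 28 probe sets of the group 1 was called with the replicate block, the brightest of MGAT4A (adjusted p = 0.0355 from limma with the block), on which the group was chosen, so that the call is no independent support, and 0 in the other 20 alternatives, the block with any number left out included. HK2 was called lower with the replicate block (adjusted p = 0.00955 from limma with the block) and not without it (adjusted p = 1.0). The replicate numbers were not taken as pairs, since the correlation of same-numbered deviations was 0.0865 to 0.762, not above 0.1 for every pair, and only 4 of 8 arrays correlated best with their own number. The 53 genes of the other lists had 0 calls in all 21 alternatives. The difference of the brightest MGAT4A probe set stayed positive, from 0.08 with the mean of its probe sets to 0.36, as did that of 231283_at, from 0.05 to 0.13. MGAT5 stayed negative, from -0.21 to -0.02. The brightest probe sets of the other 8 genes took both signs, and each moved by less than 1 SD between arrays. The cause of the changes in count was not tested.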
